A study of Macaca mulatta with 22 samples.

Results

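The genes described here are 57 named genes of ribosome production: subunits and factors of RNA polymerase I, and the nucleolar proteins that cut, modify and assemble ribosomal RNA. They were listed by name, with earlier results of these data known. By the naming used here (the Ensembl name of the identifier, or else the first name column of the deposited table), 53 of the 57 genes had a row. NCL and WDR12 were not analysed here. DDX21 and UTP3 are named only in the second name column of the table, which the naming does not use, so their rows are outside all counts: DDX21 (ENSMMUG00000001005) had 11.3 to 196 RPKM from 8C to Bl, against at most 3.9 RPKM from PN to 4C, and UTP3 (ENSMMUG00000014229) 4.69 to 34.2 RPKM from 8C to Bl, against at most 1.74 RPKM from PN to 4C. Of 61 rows with a member's name, 53 rows from 51 genes had at least 1 RPKM (reads per kilobase of transcript, scaled to the reads of the library) in at least 2 of 22 libraries, and these 53 of 14312 tested rows are the members counted below. NIP7 and UTP18 have 2 such rows each.

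Each library is 1 single rhesus macaque (Macaca mulatta) oocyte or embryo, taken at 1 of 9 stages. The oocytes, from superovulated donors after death, were at the germinal vesicle stage (GV, 2 libraries), metaphase I (MI, 2) and metaphase II (MII, 3). The embryos, made by intracytoplasmic sperm injection and grown in culture, were pronuclear (PN, 3), of the 2-cell (2C, 2), 4-cell (4C, 3) and 8-cell stages (8C, 2), morulae (Mo, 3) and blastocysts (Bl, 2). The labels name no treatment and no genetic change. No label names an animal or a culture batch, so the tests measure only the spread between single oocytes or embryos.

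Ribosomes are built in the nucleolus. RNA polymerase I transcribes the ribosomal DNA into a long precursor, small nucleolar ribonucleoproteins (snoRNPs) guide its chemical modification, the small subunit processome folds and cuts it, and separate sets of factors finish the small and the large subunit. Oocytes stockpile ribosomes during growth, transcription is silent through maturation and the first cleavages, and in the rhesus macaque the embryo's own genome is broadly switched on around the stage called 8C here, when compact nucleolus precursor bodies turn into working nucleoli.

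The libraries held between 5.58 and 21.4 M reads, as estimated from the low values. The lowest estimate was that of 8C library 2, against 20.5 M reads in 8C library 1. Whether this depth affects the 8C values was not tested. Summed stage markers followed the labels: the summed RPKM of 9 oocyte genes was 12.8 to 17.5 in blastocysts, against 4599 to 10533 in oocytes, and 5 genome activation genes summed to 5527 to 7074 at 8C and at most 18.7 before it. A list of 6 blastocyst genes summed to 1045 to 1594 RPKM at Bl, against 139 to 191 RPKM at Mo. Single genes of that list differed: KRT18 reached 1206 RPKM (blastocyst library 1), KRT8 was at most 0.327 RPKM, and NANOG was highest in morula library 1. Of 10 cumulus and granulosa cell markers, FOXL2, AMH and PTX3 were listed at 0 in all 22 libraries, and the summed list was 0.447 to 27.0 RPKM from PN to Bl, against 21.7 to 90.9 RPKM in oocytes. TNFAIP6 reached 90.4 RPKM (MII library 3), HAS2 13.1 RPKM (4C library 3) and NR5A2 9.13 RPKM (morula library 1). FSHR, CYP19A1, INHA and INHBA were at most 1.2 RPKM. Morula library 2 stood apart: it had 4277 features at 1 RPKM or more, against 6763 to 10017 in the other libraries. It was the highest morula library in 16 of the 53 member rows and the lowest in 29, and 8 member rows were listed at 0 in it.

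Most members were at their highest from the 8-cell stage on. The stage of highest mean was 8C, Mo or Bl for 39 of 53 member rows (73.6%), against 43.6% of all tested rows. The morula alone held the highest mean of 22 member rows (41.5%), against 9.69% of all rows, and of 19 member rows without morula library 2. Oocyte stages held the highest mean of 10 member rows and PN, 2C and 4C that of 4. The number of members at 10 RPKM or more was higher in every library from 8C on than in every earlier one: 24 and 25 members at GV, 24 and 25 at MI, 17 to 20 at MII, 20 to 23 at PN, 20 and 20 at 2C, 16 to 19 at 4C, 31 and 34 at 8C, 30 to 35 at Mo and 32 to 34 at Bl. An F test of any difference over the 9 stages called 47 of the 53 member rows, where 68.3% of all rows were called; the rows not called were GAR1, DDX52, UTP14A, UTP20, POLR1B and UBTF.

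**Figure D1:**
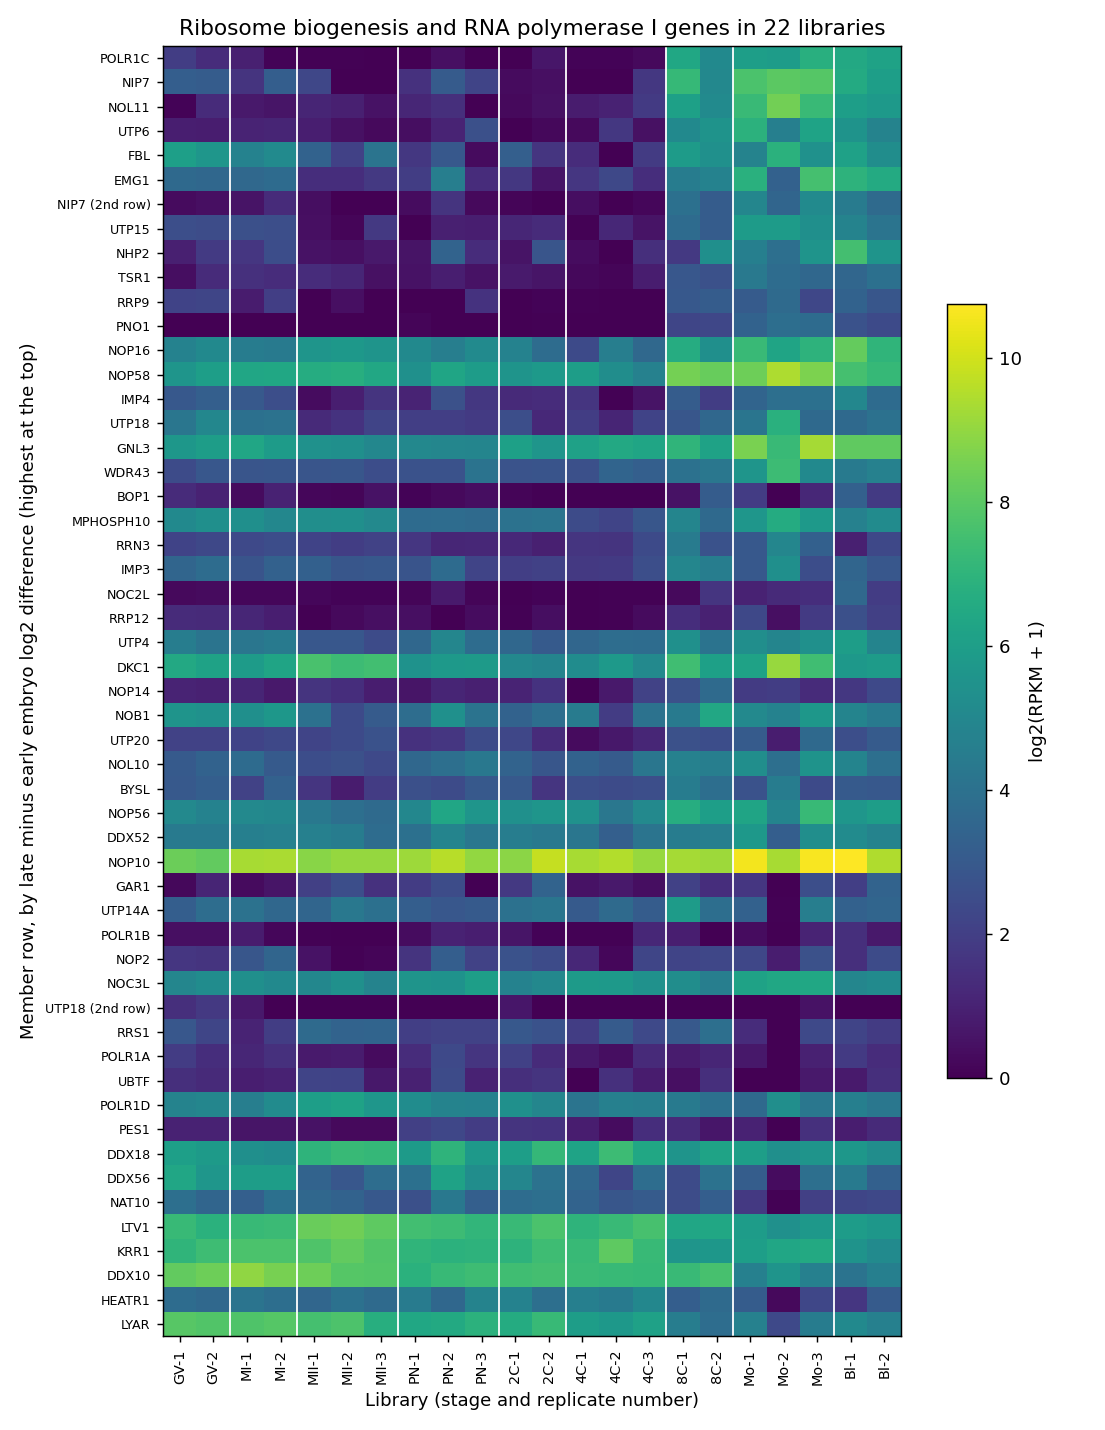
Level of each member row in each of the 22 libraries (columns, by stage), as log2(RPKM + 1) on the colour scale. Rows are sorted by the late minus early embryo log2 difference, highest at the top, so the order from top to bottom is set by that difference. The columns from 8C on are on average higher than those from PN to 4C in 39 of 53 rows. They are on average lower in 14 rows, among them LYAR, HEATR1, DDX10, KRR1 and LTV1. DDX10 is lower only from Mo on.

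Late embryos (8C, Mo and Bl, 7 libraries) were compared with early embryos (PN, 2C and 4C, 8 libraries) to ask how the set stood after genome activation. Of the 53 member rows, 31 rose and 7 fell in late embryos by limma at an adjusted p under 0.05, where 25.7% of all rows rose and 32.5% fell. The median log2 difference of the members was 1.26, against -0.15 over all rows. By role, 6 of 8 rows of the UtpA and UtpB subcomplexes rose and 1 fell, 8 of 13 other small subunit processome rows rose and 3 fell, and 5 of 6 late small subunit rows rose and 1 fell. In the large subunit group 6 of 12 rows rose and 1 fell, and 2 of 3 box C/D, 2 of 4 box H/ACA and 2 of 6 RNA polymerase I rows rose with none lower. Differences are in log2(RPKM + 1), so those of low genes are understated. RPKM is relative to each library's own reads, so a change in a row's amount cannot be told apart from a change in the other transcripts.

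The highest log2 differences were those of POLR1C, NIP7, NOL11, UTP6, FBL and EMG1. POLR1C, a subunit shared by RNA polymerases I and III (ENSMMUG00000015192, chromosome 4, 43420274 to 43431874 as deposited), had a lowest, median and highest value of 33.3, 71.6 and 109.9 RPKM in late embryos, against 0, 0.0775 and 0.563 RPKM in early embryos (log2 difference 5.90 ± 0.26 (SE), limma adjusted p = 7.29e-12). NIP7, a large subunit assembly factor (chromosome 20, 67716703 to 67718479), had 31, 146 and 261 RPKM in late embryos, against 0, 1.11 and 7.42 RPKM in early embryos (log2 difference 5.68 ± 0.44 (SE), limma adjusted p = 5.03e-09). NOL11, a UtpA protein of the early processome (chromosome 16, 63061134 to 63087781), had 34.7, 67.9 and 351 RPKM in late embryos, against 0, 0.889 and 2.57 RPKM in early embryos (log2 difference 5.58 ± 0.31 (SE), limma adjusted p = 8.85e-11). In all 3 genes every late library was above every early one. UTP6, of the UtpB subcomplex, had 24.2, 44.4 and 119 RPKM in late embryos, against 0.018, 0.351 and 5.13 RPKM in early embryos (log2 difference 4.70 ± 0.38 (SE), limma adjusted p = 6.41e-09). FBL encodes fibrillarin, the methyltransferase of box C/D snoRNPs, and had 27.2, 42.8 and 116 RPKM in late embryos, against 0, 2.27 and 8.66 RPKM in early embryos (log2 difference 3.95 ± 0.46 (SE), limma adjusted p = 7.89e-07). These ranges too were separate. Late and early libraries overlapped for EMG1, an rRNA methyltransferase of the small subunit, at 9.19, 93.7 and 188 RPKM in late embryos, against 0.51, 2.27 and 23.4 RPKM in early embryos (log2 difference 3.90 ± 0.54 (SE), limma adjusted p = 7.23e-06). The late and early ranges did not overlap and the late libraries were higher in 13 member rows, where 3.9% of all rows did the same; 3 rows were separate in the other direction, where 9.02% of all rows were.

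Of these 38 calls (34 higher and 8 lower without morula library 2), 35 held without any one of the 22 libraries and 33 of these also under every alternative setting. The other two, NOC2L and RRP12, were not tested with the filter of 5 RPKM in 2 libraries. NOC2L and PNO1 passed the filter of 1 RPKM only through late embryos, the group where they are high, so their calls are no support. BYSL, a late small subunit factor, lost its call without 2C library 2 (adjusted p = 0.0894) or 8C library 1 (0.0627), NOB1 without 8C library 2 (0.0819), and DDX18, an RNA helicase of the large subunit, without 2C library 2 (0.0667) or 8C library 1 (0.0534) and under median-of-ratios scaling (0.425).

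The other members are given by their levels. UTP4, of UtpA, had a lowest, median and highest value of 16.2, 39.3 and 61.9 RPKM in late embryos, against 7.22, 12.1 and 29.98 RPKM in early embryos. RRP12, a late small subunit factor, stayed low, with 0.346, 2.54 and 5.24 RPKM in late embryos, against 0.016, 0.156 and 0.362 RPKM in early embryos. NOL10, of the processome, had 14, 25.4 and 44.6 RPKM in late embryos, against 6.3, 10.3 and 18.9 RPKM in early embryos. The ranges overlapped in all 3 genes, with the higher median in late embryos. UTP14A and the helicase DDX52, both of the processome, were among the rows with no call over the stages: UTP14A had 0.041, 10.5 and 58.7 RPKM in late embryos, against 6.66, 7.97 and 17.2 RPKM in early embryos. DDX52 had 8.4, 27.4 and 51.4 RPKM in late embryos, against 8.64, 18.1 and 27.5 RPKM in early embryos. GAR1, of the box H/ACA particle, had 0, 3.01 and 9.69 RPKM in late embryos, against 0, 1.53 and 9.73 RPKM in early embryos. Its values were low and scattered within stages. DDX56, a large subunit helicase, had its highest means in GV and MI oocytes (81.8 and 48.7 RPKM at GV and 62.4 and 62.1 RPKM at MI) and had 0.267, 8.95 and 20.5 RPKM in late embryos, against 3.75, 15.2 and 71.5 RPKM in early embryos.

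The step from 4C to 8C spans genome activation. Of the 53 member rows, 22 rose and 2 fell at 8C relative to 4C, where 13.9% of all rows rose and 10.2% fell. The median log2 difference was 1.42 for the members, against 0 for all rows. The 2 groups of libraries did not overlap in 39 member rows, 33 of them higher and 6 lower at 8C, where 23.3% of all rows were higher and 23.5% lower without overlap. Every role except the single row of other nucleolar proteins, LYAR, had at least 1 row that rose: 7 of 13 other processome rows, 4 of 12 large subunit rows, 3 of 6 late small subunit rows, 3 of 8 UtpA and UtpB rows, 2 of 3 box C/D rows, 2 of 6 RNA polymerase I rows and 1 of 4 box H/ACA rows. With morula library 2 left out of the shared fit, 28 rose and 3 fell.

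Among the RNA polymerase I genes, POLR1C had 82.9 and 33.3 RPKM in 8C embryos, against 0.09, 0.065 and 0.218 RPKM in 4C embryos (log2 difference 5.58 ± 0.45 (SE), limma adjusted p = 3.02e-08). All 4C libraries were near 0, and both 8C libraries stood far above them. RRN3, which links the polymerase to the factors bound at the promoter, had 21.5 and 5.51 RPKM in 8C embryos, against 2.2, 2.06 and 4.32 RPKM in 4C embryos, and the 2 ranges were separate. Its call (adjusted p = 0.0422) was lost on leaving out any of 11 libraries, with the highest adjusted p (0.491) without 8C library 1. The catalytic subunits did not pass the test: POLR1A had 0.761 and 1.21 RPKM in 8C embryos, against 0.64, 0.324 and 1.4 RPKM in 4C embryos (adjusted p = 0.814), and POLR1B had 0.872 and 0 RPKM in 8C embryos, against 0.031, 0.044 and 1.27 RPKM in 4C embryos (adjusted p = 1). UBTF, the factor that coats active ribosomal DNA, had 0.375 and 1.72 RPKM in 8C embryos, against 0, 1.78 and 0.766 RPKM in 4C embryos (adjusted p = 0.869). The 8C and 4C ranges overlapped in POLR1A, POLR1B and UBTF. POLR1D, which pairs with POLR1C in both polymerases, had 19.8 and 14.7 RPKM in 8C embryos, against 16.5, 24.4 and 23 RPKM in 4C embryos (log2 difference -0.29 ± 0.45 (SE), adjusted p = 0.715).

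Of the snoRNP proteins, FBL (chromosome 19, 46195537 to 46208072) had 58.6 and 41 RPKM in 8C embryos, against 1.58, 0 and 2.65 RPKM in 4C embryos (log2 difference 4.57 ± 0.79 (SE), limma adjusted p = 0.000302). NOP58, a scaffold protein of the same box C/D particle, was already abundant before activation and had 361 and 301 RPKM in 8C embryos, against 62.1, 37.5 and 25.6 RPKM in 4C embryos (log2 difference 3.04 ± 0.44 (SE), limma adjusted p = 4.11e-05). In both genes the 8C libraries stood far above the 4C libraries. NOP56, the partner of NOP58, had 102 and 64.5 RPKM in 8C embryos, against 42.2, 18.3 and 32.4 RPKM in 4C embryos; the ranges were separate and the test was not passed (log2 difference 1.44 ± 0.58 (SE), adjusted p = 0.0781). In the box H/ACA particle, which makes pseudouridine and is also part of telomerase, NHP2 had 2.4 and 39.96 RPKM in 8C embryos, against 0.285, 0 and 1.71 RPKM in 4C embryos (log2 difference 2.96 ± 0.97 (SE), limma adjusted p = 0.0312). The 2 8C libraries of NHP2 were far apart, and its call was lost without 4C library 1 (0.0764), 4C library 2 (0.0912) or 8C library 2 (0.492), with no filter on low values (0.0555) and with only the stages compared in the fit (0.0643). DKC1, the pseudouridine synthase itself, had 175 and 68.6 RPKM in 8C embryos, against 36.9, 54.6 and 32.4 RPKM in 4C embryos (log2 difference 1.42 ± 0.59 (SE), adjusted p = 0.0895). NOP10 was high in every library, at 629 and 577 RPKM in 8C embryos, against 644, 725 and 540.4 RPKM in 4C embryos, and its ranges overlapped. The deposited chromosome of this row differs from the one another assembly gives for the gene, and its identity could not be checked.

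In the UtpA subcomplex, the first to bind the growing pre-ribosomal RNA, NOL11 had 67.9 and 34.7 RPKM in 8C embryos, against 0.763, 1.02 and 2.57 RPKM in 4C embryos (log2 difference 4.41 ± 0.54 (SE), limma adjusted p = 7.1e-06). UTP15 of the same subcomplex had 12.6 and 7.76 RPKM in 8C embryos, against 0.046, 1.29 and 0.486 RPKM in 4C embryos, with no overlap. HEATR1, the largest UtpA protein, had 8.27 and 12 RPKM in 8C embryos, against 23.8, 20.1 and 30.6 RPKM in 4C embryos, lower in both 8C libraries though not past the test (log2 difference -1.21 ± 0.64 (SE), adjusted p = 0.185). In UtpB, UTP6 (chromosome 16, 27054408 to 27097482) had 33.8 and 45.3 RPKM in 8C embryos, against 0.191, 2.35 and 0.387 RPKM in 4C embryos (log2 difference 4.50 ± 0.65 (SE), limma adjusted p = 4.59e-05). Here too 4C and 8C were clearly apart. UTP18 had 6.28 and 11.1 RPKM in 8C embryos, against 2.9, 1.13 and 3.46 RPKM in 4C embryos (log2 difference 1.49 ± 0.70 (SE), adjusted p = 0.131). RRP9, a protein of the U3 snoRNP that guides the first cuts, had 6.71 and 7.68 RPKM in 8C embryos, against 0.049, 0 and 0 RPKM in 4C embryos (log2 difference 3.01 ± 0.50 (SE), limma adjusted p = 0.000191). IMP3, which helps U3 pair with its target, had 29.6 and 22.8 RPKM in 8C embryos, against 2.42, 2.5 and 4.93 RPKM in 4C embryos, and MPHOSPH10, its binding partner, 28.3 and 11.9 RPKM in 8C embryos, against 4.52, 3.65 and 6.3 RPKM in 4C embryos. Both 8C libraries were above all 4C libraries in RRP9, IMP3 and MPHOSPH10.

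PNO1, the partner of the nuclease NOB1 in the last step of small subunit RNA maturation (chromosome 13, 68425127 to 68443582), was listed at 0 in all 7 oocyte libraries and in 6 of the 8 early embryo libraries. It had 3.81 and 3.87 RPKM in 8C embryos, against 0 in all 3 4C embryos (limma adjusted p = 1e-05). PNO1 passed the filter only through libraries from 8C on, so this call is no support. The 2 8C values lay close together, at a low level. TSR1, a late factor of the same particle, had 6.5 and 5.32 RPKM in 8C embryos, against 0.163, 0.107 and 0.812 RPKM in 4C embryos, without overlap. NOB1 itself was present before activation and had 20.6 and 86.8 RPKM in 8C embryos, against 21.3, 2.76 and 15.7 RPKM in 4C embryos (log2 difference 1.96 ± 0.72 (SE), adjusted p = 0.0557), so that 8C library 1 lay within the range of the 4C libraries.

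Of the large subunit genes, NIP7 had 146 and 31 RPKM in 8C embryos, against 0, 0 and 2.38 RPKM in 4C embryos (log2 difference 5.51 ± 0.77 (SE), limma adjusted p = 3.21e-05). A second row with the name NIP7 (chromosome X, 153671540 to 153672927) had 14.6 and 7.69 RPKM in 8C embryos, against 0.317, 0 and 0.152 RPKM in 4C embryos (log2 difference 3.34 ± 0.51 (SE), limma adjusted p = 8.9e-05). Its level was lower in both 8C libraries than that of the first row. Whether the counting divided reads of like copies between the 2 rows was not tested. NOP16, a nucleolar factor of the large subunit, had 99.9 and 39.6 RPKM in 8C embryos, against 4.31, 23.1 and 11.3 RPKM in 4C embryos. BOP1, which forms a complex with PES1 and WDR12, had 0.459 and 7.67 RPKM in 8C embryos, against 0.028, 0 and 0 RPKM in 4C embryos, with 1 of the 2 8C libraries close to the 4C level. PES1 had 1.46 and 0.585 RPKM in 8C embryos, against 0.826, 0.298 and 1.62 RPKM in 4C embryos, with overlap (adjusted p = 0.91).

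Of the 24 calls at 8C, 13 held without any one library and under every setting: POLR1C, FBL, NOP58, NOL11, UTP15, UTP6, RRP9, IMP3, PNO1, TSR1, both NIP7 rows and KRR1. Among these 13, PNO1 passed the filter only through late embryos, so its call is no support. Of the other 11 rows, BYSL, BOP1, EMG1, IMP4, LYAR, MPHOSPH10, NHP2, NOP14, NOP16, RRN3 and UTP20, each lost its call without at least 1 library. Leaving out 1 library at a time gave 17 to 31 calls.

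**Figure D2:**
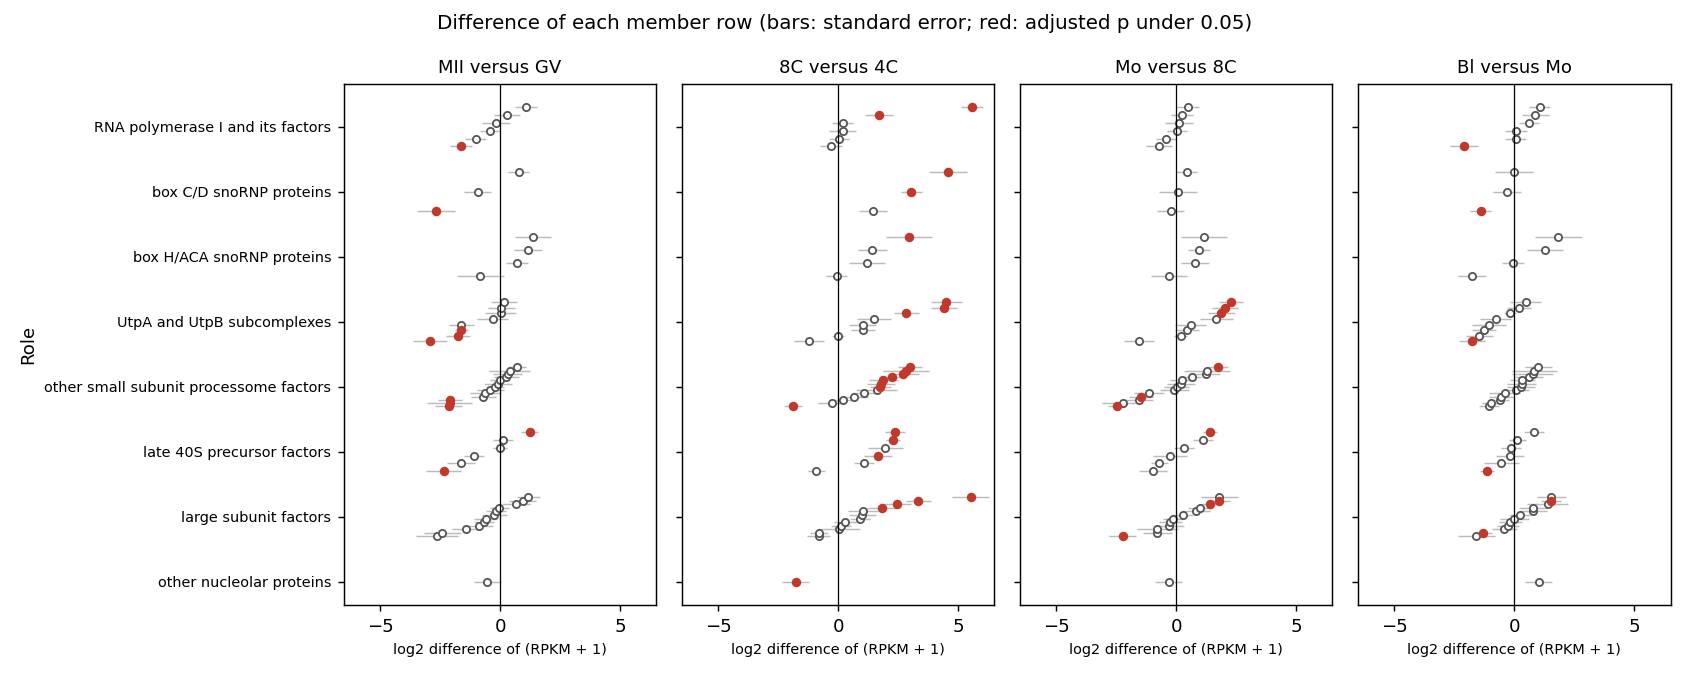
Difference of each member row in log2(RPKM + 1), with bars of 1 SE, for MII minus GV, 8C minus 4C, Mo minus 8C and Bl minus Mo, grouped by role; red points passed limma at an adjusted p under 0.05. The 8C panel holds 22 rows called above 0 and 2 below it, the MII panel 1 above and 8 below.

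**Figure D3:**
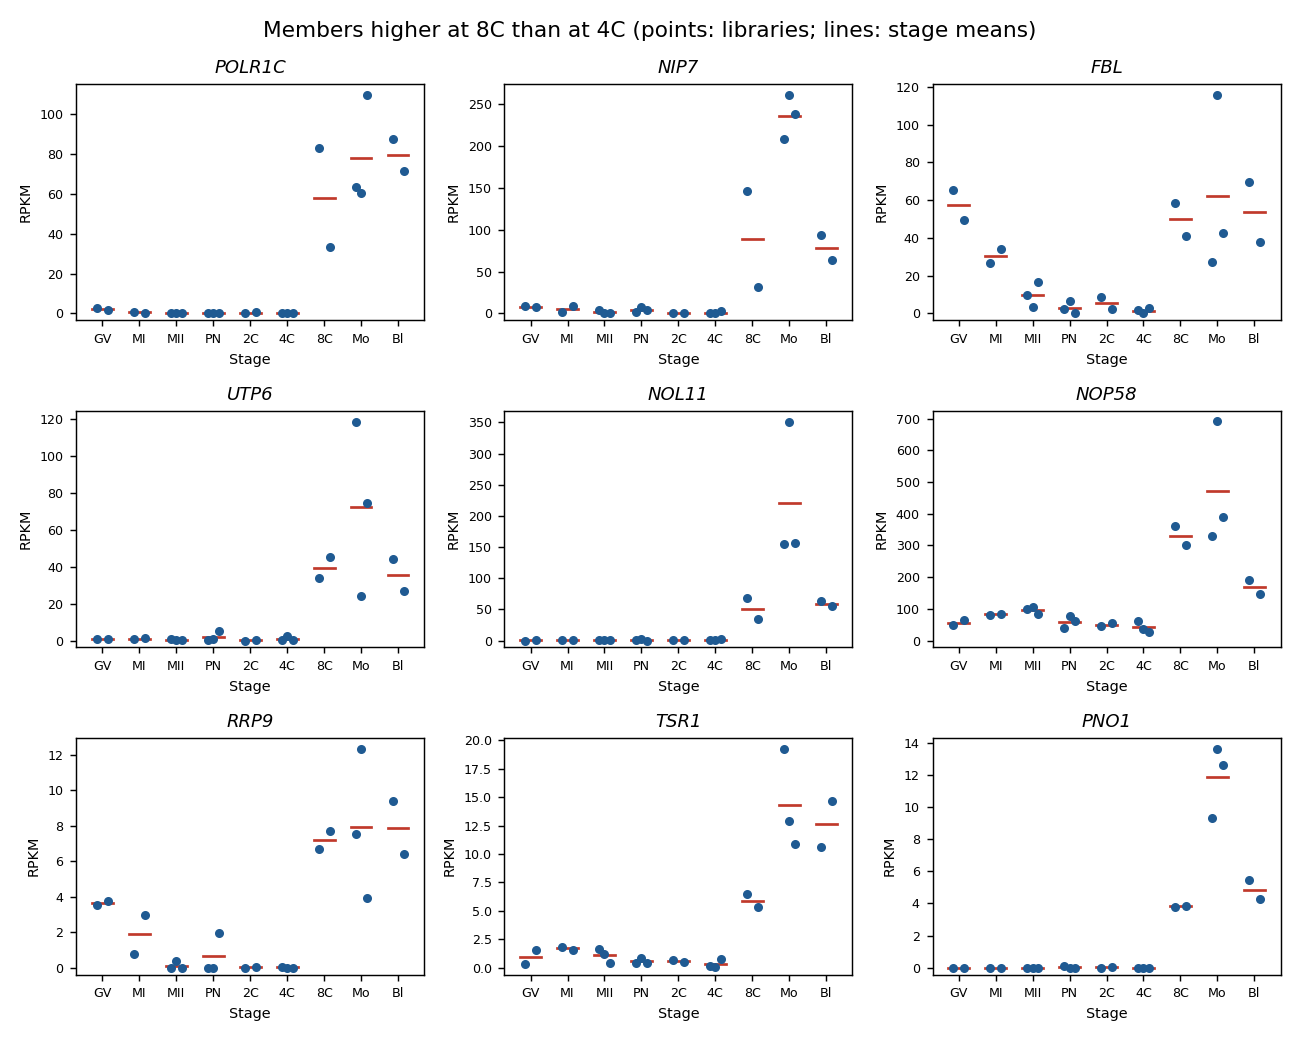
RPKM of POLR1C, NIP7, FBL, UTP6, NOL11, NOP58, RRP9, TSR1 and PNO1 by stage; points are single libraries and lines stage means. Levels from 8C on are above those from PN to 4C in every panel, and the highest value is that of morula library 2 in 6 of the 9 panels (NIP7, FBL, NOL11, NOP58, RRP9 and PNO1).

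A minority of members went down across the same interval. KRR1, a KH-domain protein of the processome, had 47.2 and 50.2 RPKM in 8C embryos, against 151, 274 and 149 RPKM in 4C embryos (log2 difference -1.89 ± 0.37 (SE), limma adjusted p = 0.000897). LYAR, a nucleolar zinc finger protein, had 22.5 and 13.1 RPKM in 8C embryos, against 62.2, 52.5 and 70.4 RPKM in 4C embryos (log2 difference -1.77 ± 0.56 (SE), limma adjusted p = 0.0264). In both genes the 8C libraries were below all 4C libraries. The LYAR call was lost without 4C library 1 (0.059), 4C library 3 (0.0736), 8C library 1 (0.05004) or 8C library 2 (0.184). LTV1, a factor needed for export of the small subunit, had 81.7 and 84.6 RPKM in 8C embryos, against 127, 154 and 197 RPKM in 4C embryos and did not pass the test at this step (log2 difference -0.91 ± 0.35 (SE), adjusted p = 0.07). These 3 rows were the ones whose 8C libraries were all below every PN, 2C and 4C library, where 15% of all rows were.

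DDX10, an RNA helicase of the processome, fell 1 stage later. It had 158, 152 and 148 RPKM at 4C and 155 and 194 RPKM at 8C, followed by 24.8, 46.5 and 24.5 RPKM at Mo and 16.1 and 23.6 RPKM at Bl. The difference of Mo to 8C (log2 difference -2.47 ± 0.38 (SE), limma adjusted p = 8.09e-05) held without any one library and under every setting, and the morula and blastocyst libraries were all below every earlier one. HEATR1 and NAT10, the RNA cytidine acetyltransferase of the small subunit, were likewise first below all early libraries at Mo, as were 14.1% of all rows. Over late embryos as a whole, LYAR had a lowest, median and highest value of 4.18, 22.5 and 33.4 RPKM, against 52.5, 87.5 and 152 RPKM in early embryos (log2 difference -2.19 ± 0.32 (SE), limma adjusted p = 1.32e-05). HEATR1 had 0.225, 7.37 and 12 RPKM in late embryos, against 11.1, 22.5 and 30.6 RPKM in early embryos (log2 difference -1.85 ± 0.37 (SE), limma adjusted p = 0.000335). KRR1 had 34.7, 50.2 and 90.3 RPKM in late embryos, against 119, 139.6 and 274 RPKM in early embryos (log2 difference -1.47 ± 0.21 (SE), limma adjusted p = 1.2e-05). The late and early ranges were separate for LYAR and KRR1 and overlapped for HEATR1. LTV1, also separate, had 41.4, 60.5 and 84.6 RPKM in late embryos, against 127, 159 and 208 RPKM in early embryos (log2 difference -1.40 ± 0.20 (SE), limma adjusted p = 1.16e-05). DDX10 differed by -1.72 ± 0.22 on the log2 scale (adjusted p = 2.38e-06), NAT10 by -1.31 ± 0.33 (adjusted p = 0.00224) and DDX18 by -0.83 ± 0.28 (adjusted p = 0.0153), the last with the limits given above. The summed oocyte markers moved the same way, at 592 to 622 RPKM at 8C against 2635 to 2892 RPKM at 4C; whether these rows share in that decline was not tested.

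**Figure D4:**
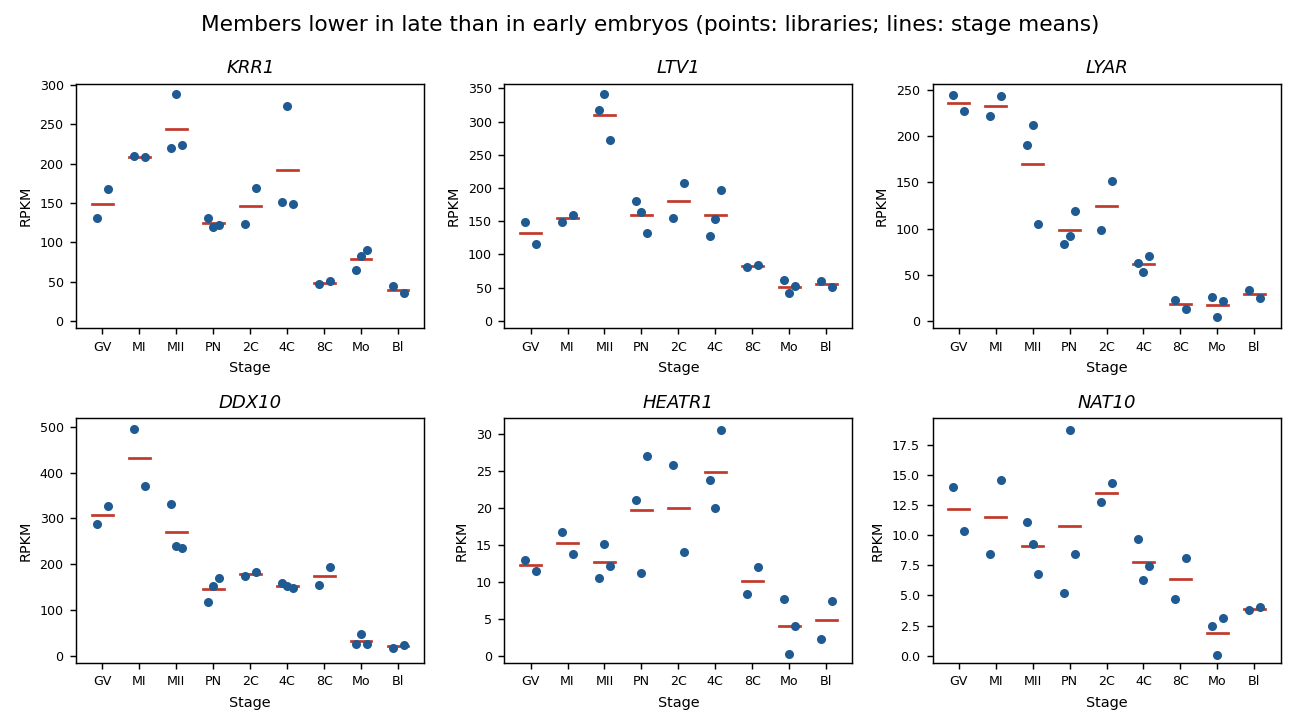
RPKM of KRR1, LTV1, LYAR, DDX10, HEATR1 and NAT10 by stage; points are single libraries and lines stage means. KRR1, LTV1 and LYAR step down between 4C and 8C, and DDX10 between 8C and Mo.

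For most rows that rose, 8C was not the highest late stage. Of the 31 rows higher in late embryos, the highest late mean was at 8C for 4, at Mo for 18 and at Bl for 9, and without morula library 2 it was at Mo for 17. The 8C mean was 16.9% to 100% of the highest late mean, with a median of 44.9%, and 15.8% to 100% with a median of 41.3% without morula library 2. IMP3, NOP14, NOB1 and BYSL had their highest late mean at 8C. For NOB1 this rested on 8C library 2 (86.8 RPKM), since 8C library 1 (20.6 RPKM) was the lowest late library. The highest late library of IMP3 was morula library 2 (39.8 RPKM). RRP9 (90.8%), RRN3 (90.5%) and FBL (80.4%) were close to their maximum, and NOL11 (23.3%), WDR43 (20.5%), UTP15 (19.4%) and UTP18 (18.3%) were lower. Without morula library 2 these 4 genes were at 33.1% (NOL11), 41.3% (WDR43), 20.7% (UTP15) and 60.2% (UTP18). Read as the first stage at which all libraries lay above every PN, 2C and 4C library, 22 member rows rose at 8C, 7 at Mo and 1 at Bl, where 15.5%, 4.3% and 11% of all rows did. Leaving out 1 library in turn gave 22 to 29 rows at 8C. At any of these stages 30 member rows did so, where 30.8% of all rows did, and 30 to 34 with 1 library left out.

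Between 8C and the morula, 7 member rows rose and 3 fell, where 5.39% of all rows rose and 20% fell. Libraries did not overlap in 13 rows higher and 6 lower at Mo, where 8.25% and 30.7% of all rows were so. The median log2 difference was 0.19 for members and -0.38 for all rows. By role, the rows that rose were 3 of UtpA and UtpB, 2 of the large subunit and 1 each of the late small subunit and other processome groups. UTP15 had 59.2, 59.1 and 39.4 RPKM in Mo embryos, against 12.6 and 7.76 RPKM in 8C embryos (log2 difference 2.27 ± 0.51 (SE), limma adjusted p = 0.00253). NOL11 had 155, 351 and 156 RPKM in Mo embryos, against 67.9 and 34.7 RPKM in 8C embryos (log2 difference 2.05 ± 0.54 (SE), limma adjusted p = 0.00823). WDR43, also of UtpA, had 47.6, 163 and 32.9 RPKM in Mo embryos, against 15.1 and 18.1 RPKM in 8C embryos (log2 difference 1.88 ± 0.57 (SE), limma adjusted p = 0.0194). All morula libraries of these 3 genes were above both 8C libraries, with the NOL11 and WDR43 values of morula library 2 far above the other two. GNL3, the nucleolar GTPase nucleostemin, had 389, 154 and 626 RPKM in Mo embryos, against 131 and 71.6 RPKM in 8C embryos (log2 difference 1.78 ± 0.48 (SE), limma adjusted p = 0.00945). MPHOSPH10 had 49.8, 95.5 and 53.5 RPKM in Mo embryos, against 28.3 and 11.9 RPKM in 8C embryos (log2 difference 1.73 ± 0.43 (SE), limma adjusted p = 0.00556). NOC3L, of the complexes that carry large subunit precursors out of the nucleolus, had 73, 83.1 and 83.3 RPKM in Mo embryos, against 37 and 23.3 RPKM in 8C embryos (log2 difference 1.41 ± 0.38 (SE), limma adjusted p = 0.00932). PNO1 had 9.32, 13.6 and 12.6 RPKM in Mo embryos, against 3.81 and 3.87 RPKM in 8C embryos (log2 difference 1.39 ± 0.29 (SE), limma adjusted p = 0.00123). None of these 4 genes had a morula library within the 8C range.

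Besides DDX10, the rows that fell at the morula were RRS1, a large subunit factor, with 1.59, 0 and 4.11 RPKM in Mo embryos, against 7.04 and 14.4 RPKM in 8C embryos (log2 difference -2.23 ± 0.56 (SE), limma adjusted p = 0.00572), and NOP14, of the processome, with 2.7, 2.91 and 1.5 RPKM in Mo embryos, against 5.4 and 12 RPKM in 8C embryos (log2 difference -1.47 ± 0.51 (SE), limma adjusted p = 0.0431). Without 8C library 2 the counts were 2 higher and 2 lower, and GNL3 (0.128), MPHOSPH10 (0.132), NOC3L (0.122), NOL11 (0.111) and RRS1 (0.0853) were no longer called. WDR43 was lost without 8C library 1 (0.104), 8C library 2 (0.0633) or morula library 2 (0.0653), and NOP14 without any of 11 libraries, with the highest adjusted p (0.343) without 8C library 2. PNO1 and UTP15 were lost with a pseudocount of 0.1 (adjusted p = 0.0699 and 0.118) and with only the stages compared in the fit (0.272 and 0.0708), where DDX10 was the 1 row called. Without morula library 2 there were 9 higher and 5 lower, and median-of-ratios scaling gave 13 higher and 2 lower.

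From morula to blastocyst, 1 member row rose and 5 fell, where 12% of all rows rose and 2.12% fell. Without overlap, 4 rows were higher and 12 lower at Bl, where 27.1% and 5.81% of all rows were so. The median log2 difference was 0.00 for members and 0.23 for all rows. RRN3 had 0.94 and 4.01 RPKM in Bl embryos, against 6.68, 29.1 and 8.96 RPKM in Mo embryos (log2 difference -2.08 ± 0.59 (SE), limma adjusted p = 0.0218). NOL11 had 63.4 and 55.3 RPKM in Bl embryos, against 155, 351 and 156 RPKM in Mo embryos (log2 difference -1.77 ± 0.54 (SE), limma adjusted p = 0.0331). NOP58 had 191 and 148 RPKM in Bl embryos, against 329, 692 and 390.3 RPKM in Mo embryos (log2 difference -1.40 ± 0.44 (SE), limma adjusted p = 0.0367). In each of the 3 genes both blastocysts were below all morulae. NOC3L had 29.1 and 34.6 RPKM in Bl embryos, against 73, 83.1 and 83.3 RPKM in Mo embryos (log2 difference -1.30 ± 0.38 (SE), limma adjusted p = 0.0254), and PNO1 had 5.44 and 4.26 RPKM in Bl embryos, against 9.32, 13.6 and 12.6 RPKM in Mo embryos (log2 difference -1.13 ± 0.29 (SE), limma adjusted p = 0.0116). NOC2L, the partner of NOC3L, was the row that rose, with 11.2 and 2.74 RPKM in Bl embryos, against 1.03, 1.42 and 1.68 RPKM in Mo embryos (log2 difference 1.52 ± 0.42 (SE), limma adjusted p = 0.0205). Its call rested on blastocyst library 1, without which the adjusted p was 0.451, and was also lost without morula library 1 (0.0516). RRN3 was lost without morula library 2 (0.0816) or blastocyst library 1 (0.309), NOL11 without morula library 2 (0.106), blastocyst library 1 (0.132) or 2 (0.157), NOC3L without blastocyst library 1 (0.171) or 2 (0.0719), and PNO1 without blastocyst library 2 (0.0951). NOP58 was lost without MI library 1 (0.0507) or 2 (0.0508), morula library 2 (0.0794) or blastocyst library 1 (0.105) or 2 (0.206). Members called were 3 without morula library 2, 1 without blastocyst library 1 and 2 without blastocyst library 2. With only Mo and Bl in the fit none was called, and median-of-ratios scaling gave 0 higher and 10 lower.

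During oocyte maturation the members that were called mostly went down, as did the called rows among all rows. Of the 53 member rows, 1 rose and 8 fell at MII relative to GV, where 0.342% of all rows rose and 8.97% fell. Without overlap, 11 rows were higher and 26 lower at MII, where 14.3% and 36.1% of all rows were so. The median log2 difference was -0.31 for members and -0.19 for all rows. UTP18 had 1.43, 2.02 and 3.54 RPKM in MII oocytes, against 17.8 and 30.2 RPKM in GV oocytes (log2 difference -2.91 ± 0.70 (SE), limma adjusted p = 0.0121). FBL had 9.54, 3.25 and 16.6 RPKM in MII oocytes, against 65.3 and 49.7 RPKM in GV oocytes (log2 difference -2.65 ± 0.79 (SE), limma adjusted p = 0.0418). NOB1, the nuclease named above, had 15.3, 4.39 and 7.46 RPKM in MII oocytes, against 46.8 and 42.9 RPKM in GV oocytes (log2 difference -2.34 ± 0.72 (SE), limma adjusted p = 0.0486). In these 3 genes all MII libraries were below both GV libraries. IMP4, a U3-associated protein, had 0.276, 0.868 and 2.08 RPKM in MII oocytes, against 6.72 and 8.58 RPKM in GV oocytes (log2 difference -2.14 ± 0.58 (SE), limma adjusted p = 0.0246). RRP9 had 0, 0.355 and 0 RPKM in MII oocytes, against 3.52 and 3.75 RPKM in GV oocytes (log2 difference -2.06 ± 0.50 (SE), limma adjusted p = 0.0131). UTP15 had 0.352, 0.11 and 2.45 RPKM in MII oocytes, against 4.97 and 4.62 RPKM in GV oocytes (log2 difference -1.74 ± 0.51 (SE), limma adjusted p = 0.0359). The ranges were again separate. POLR1C had 0.03, 0.036 and 0 RPKM in MII oocytes, against 2.83 and 1.59 RPKM in GV oocytes (log2 difference -1.62 ± 0.45 (SE), limma adjusted p = 0.0277). A second row named UTP18 (IMMRNTR5669), whose name comes from the deposited file alone, was listed at 0 in all 3 MII libraries, against 1.7 and 2.44 RPKM in GV oocytes. It reached 1 RPKM in no library outside GV and so passed the filter only through the group where it is high; it is 1 of the 8 rows that fell, and its call is no support. LTV1 was the row that rose, with 317, 342 and 273 RPKM in MII oocytes, against 149 and 116 RPKM in GV oocytes (log2 difference 1.23 ± 0.35 (SE), limma adjusted p = 0.0342), and all MII libraries were above both GV libraries.

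None of these 9 calls held without every single library: the second UTP18 row was not tested with either GV library left out, and the other 8 lost their call without at least 1 library. No member row was called with the first or with the second GV library left out, 5 were called without the first MII library and 3 without the second, and 2 rose and 14 fell without morula library 2. With 1 GV library left out, the adjusted p reached 0.14 for UTP18, 0.271 for FBL, 0.176 for IMP4, 0.116 for RRP9, 0.225 for UTP15, 0.293 for POLR1C and 0.264 for LTV1. FBL, IMP4, UTP15, POLR1C and LTV1 were also lost without MII library 1 or 2 (0.0644 to 0.186), POLR1C and LTV1 without MII library 3, FBL without MI library 1 or 2, PN library 1 or 4C library 1, and LTV1 without MI library 2. NOB1 was lost without any of 15 libraries. Median-of-ratios scaling gave 1 higher and 1 lower, and a fit of GV and MII alone gave 21 calls.

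**Figure D5:**
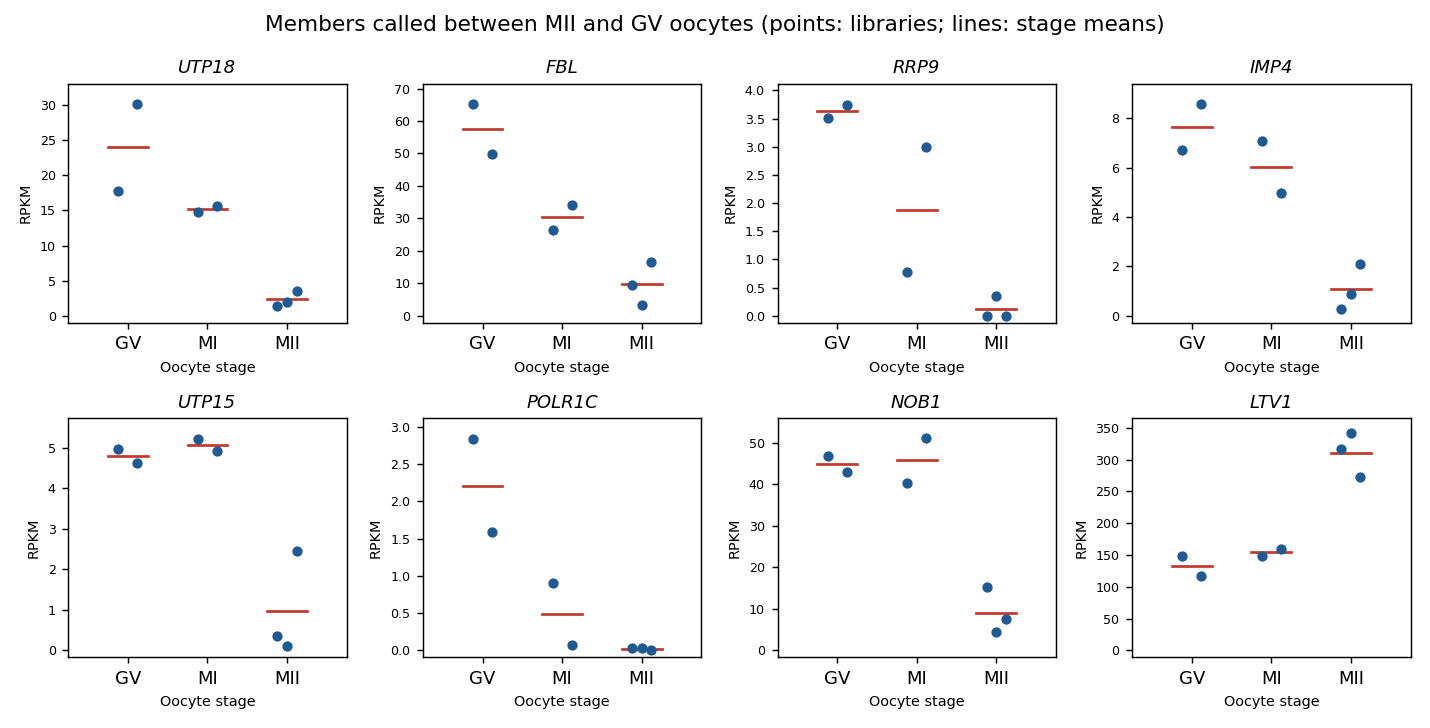
RPKM of UTP18, FBL, RRP9, IMP4, UTP15, POLR1C, NOB1 and LTV1 at GV, MI and MII; points are single oocytes and lines stage means. The MII points lie below the GV points in every panel except LTV1, where they lie above.

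Of the 2 steps of maturation, only the second had calls, though the difference between the steps was not tested. Read as the first stage at which all libraries lay below every GV library, 13 member rows fell at MI and 17 at MII. Of all rows, 27.4% and 21.1% did so. At MI relative to GV limma called no member row (0.587% of all rows), with 2 rows higher and 2 lower at an unadjusted p under 0.05. At MII relative to MI, 2 member rows rose and 4 fell, where 1.49% and 6.99% of all rows did. NOP2, an rRNA cytosine methyltransferase of the large subunit, had 0.45, 0.043 and 0.12 RPKM in MII oocytes, against 6.4 and 10.2 RPKM in MI oocytes (log2 difference -2.94 ± 0.61 (SE), limma adjusted p = 0.00579), lost without MI library 2 (0.0985). NOB1 and UTP18 also fell, each with a call lost without many libraries (15 and 13), as did UTP15 (lost without any of 4). DDX18 had 126, 150.4 and 142 RPKM in MII oocytes, against 39.4 and 36.3 RPKM in MI oocytes (log2 difference 1.85 ± 0.48 (SE), limma adjusted p = 0.0213). RRS1 had 12.1, 9.8 and 9.95 RPKM in MII oocytes, against 1.1 and 2.82 RPKM in MI oocytes (log2 difference 2.03 ± 0.56 (SE), limma adjusted p = 0.0295). MII and MI libraries of DDX18 and RRS1 did not overlap. DDX18 was lost without MI library 1 (0.14) or 2 (0.163) or MII library 2 (0.0699) or 3 (0.0513), and RRS1 without any of 5 libraries. The count fell to 1 without MI library 1 or MII library 2, to 0 without MI library 2 and to 3 without MII library 1 or 3, and it was 12 without morula library 2. Median-of-ratios scaling gave 1 higher and 1 lower.

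Across fertilisation, 2 member rows rose and 2 fell at PN relative to MII, where 4.76% and 2.91% of all rows did. The oocytes came from donors after death and the embryos from culture, so stage and source cannot be told apart here. The summed cumulus and granulosa markers were 11.9 to 14.3 RPKM at PN, against 21.7 to 90.9 RPKM at MII, and their part in the result was not tested. PES1 had 3.08, 3.87 and 2.73 RPKM in PN libraries, against 0.435, 0.22 and 0.218 RPKM in MII libraries (log2 difference 1.71 ± 0.37 (SE), limma adjusted p = 0.00748), a call that held without any one library. NOP2 had 2.08, 8.31 and 3.39 RPKM in PN libraries, against 0.45, 0.043 and 0.12 RPKM in MII libraries (log2 difference 2.07 ± 0.54 (SE), limma adjusted p = 0.0248). DKC1 had 43, 54.8 and 56.4 RPKM in PN libraries, against 204, 162 and 179 RPKM in MII libraries (log2 difference -1.81 ± 0.53 (SE), limma adjusted p = 0.0425). MPHOSPH10 had 12.7, 13.1 and 12 RPKM in PN libraries, against 38.2, 39.7 and 32.3 RPKM in MII libraries (log2 difference -1.47 ± 0.39 (SE), limma adjusted p = 0.0245). The libraries of the 2 stages did not overlap in any of the 4 genes. NOP2 was lost with any 1 MII library left out (0.0552 to 0.0843) and without PN library 2 (0.125) or PN library 3 (0.0526), DKC1 without any of 12 libraries and MPHOSPH10 without any of 6. PES1 alone was called without MII library 1, 2 or 3 or PN library 2 or 3, and 6 rows rose and 7 fell without morula library 2. Median-of-ratios scaling gave 2 higher and 0 lower.

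The first cleavages showed no member past the test. At 2C relative to PN limma called none (0.468% of all rows), with 0 rows higher and 2 lower at an unadjusted p under 0.05. At 4C relative to 2C it called none either (0.573% of all rows), with 1 row higher and 4 lower at an unadjusted p under 0.05.

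A panel of genes shows the levels at all stages (mean RPKM ± SD over the libraries of a stage). POLR1A, the largest subunit of RNA polymerase I, was at 2.21 ± 0.815 (GV), 1.51 ± 0.438 (MI), 0.578 ± 0.287 (MII), 2.65 ± 1.35 (PN), 2.37 ± 1.2 (2C), 0.789 ± 0.554 (4C), 0.985 ± 0.317 (8C), 0.526 ± 0.49 (Mo) and 2.08 ± 0.69 (Bl). Its highest single library was a PN embryo at 4.17 RPKM. POLR1B, the second largest subunit, stayed lower still in most stages, at 0.361 ± 0.0184 (GV), 0.462 ± 0.454 (MI), 0.0202 ± 0.0271 (MII), 0.729 ± 0.402 (PN), 0.295 ± 0.297 (2C), 0.447 ± 0.71 (4C), 0.436 ± 0.617 (8C), 0.455 ± 0.567 (Mo) and 1.18 ± 0.762 (Bl). UBTF had 1.62 ± 0.216 (GV), 0.965 ± 0.114 (MI), 2.55 ± 1.68 (MII), 2.18 ± 2.04 (PN), 1.9 ± 0.187 (2C), 0.85 ± 0.895 (4C), 1.05 ± 0.95 (8C), 0.214 ± 0.371 (Mo) and 1.22 ± 0.748 (Bl). Neighbouring stages of POLR1A, POLR1B and UBTF did not pass the test in any comparison. RRN3 was at 3.76 ± 0.369 (GV), 4.5 ± 0.448 (MI), 3.23 ± 0.35 (MII), 1.58 ± 0.602 (PN), 1.14 ± 0.271 (2C), 2.86 ± 1.27 (4C), 13.5 ± 11.3 (8C), 14.9 ± 12.4 (Mo) and 2.48 ± 2.17 (Bl). Its morula mean was 7.82 without morula library 2.

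FBL was at 57.5 ± 11 (GV), 30.3 ± 5.37 (MI), 9.79 ± 6.67 (MII), 3.12 ± 3.33 (PN), 5.42 ± 4.58 (2C), 1.41 ± 1.34 (4C), 49.8 ± 12.4 (8C), 62 ± 47.4 (Mo) and 53.8 ± 22.6 (Bl). The means were high in GV and MI oocytes, low from MII to 4C and high again from 8C, and the morula mean was 35.0 without library 2. NOP56 was at 29.3 ± 4.19 (GV), 31.4 ± 1.08 (MI), 15 ± 3.61 (MII), 53.5 ± 25.8 (PN), 44.6 ± 4.08 (2C), 31 ± 12 (4C), 83.3 ± 26.6 (8C), 85.5 ± 62.6 (Mo) and 55.6 ± 9.27 (Bl), with its minimum at MII. DKC1 was at 80.05 ± 11 (GV), 67.7 ± 12.9 (MI), 182 ± 21.1 (MII), 51.4 ± 7.32 (PN), 29.9 ± 2.52 (2C), 41.3 ± 11.8 (4C), 122 ± 75 (8C), 262 ± 248 (Mo) and 55.3 ± 5.17 (Bl). Its order differed from that of FBL, since MII oocytes were above GV and MI oocytes, and its morula mean was 122 without library 2. UTP18 was at 24 ± 8.74 (GV), 15.2 ± 0.591 (MI), 2.33 ± 1.09 (MII), 2.86 ± 0.278 (PN), 3.22 ± 2.61 (2C), 2.5 ± 1.22 (4C), 8.67 ± 3.38 (8C), 47.3 ± 57.1 (Mo) and 13.4 ± 2.37 (Bl), with a morula mean of 14.4 without library 2. HEATR1 was at 12.2 ± 1.09 (GV), 15.3 ± 2.06 (MI), 12.6 ± 2.32 (MII), 19.8 ± 8.04 (PN), 19.95 ± 8.34 (2C), 24.8 ± 5.36 (4C), 10.1 ± 2.61 (8C), 3.95 ± 3.73 (Mo) and 4.79 ± 3.64 (Bl), highest in the early embryos. PES1 was at 1.03 ± 0.0205 (GV), 0.531 ± 0.0049 (MI), 0.291 ± 0.125 (MII), 3.22 ± 0.585 (PN), 2.01 ± 0.0877 (2C), 0.915 ± 0.666 (4C), 1.02 ± 0.618 (8C), 0.956 ± 0.909 (Mo) and 1.11 ± 0.424 (Bl) and NOB1 at 44.8 ± 2.77 (GV), 45.8 ± 7.69 (MI), 9.04 ± 5.61 (MII), 23.6 ± 15.4 (PN), 11.6 ± 3.32 (2C), 13.2 ± 9.48 (4C), 53.7 ± 46.8 (8C), 36.7 ± 12.9 (Mo) and 24.1 ± 4.69 (Bl). For PES1 the order of 8C, Mo and Bl lay within the spread of the libraries.

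The wider pathway was followed with 124 other names of ribosome production, of which 106 had a tested row (124 rows). At 8C relative to 4C, 29 of these rows rose and 8 fell, where 13.9% of all rows rose and 10.2% fell, with a median log2 difference of 0.53. GTPBP4, a GTPase of the large subunit, averaged 27.5 RPKM in 8C embryos and 0.009 RPKM in 4C embryos (log2 difference 4.67, limma adjusted p = 5.06e-07). WDR74, a large subunit factor, averaged 49.95 RPKM in 8C embryos and 0.331 RPKM in 4C embryos (5.26, adjusted p = 1.04e-06), and C1D, a cofactor of the RNA exosome, 165 RPKM in 8C embryos and 1.85 RPKM in 4C embryos (5.91, adjusted p = 1.43e-06). Late against early embryos, 61 rose and 19 fell, where 25.7% and 32.5% of all rows did. Of the rows that rose, 1 at 8C and 14 in late embryos passed the filter only through the group where they are high. GTPBP4 is among these 14, so its call at 8C is no support either.

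At Mo relative to 8C, 17 rows of the wider list rose and 7 fell, where 5.39% of all rows rose and 20% fell (15 called without 8C library 2, and 7 with only these stages in the fit). Median-of-ratios scaling gave 30 higher and 6 lower. Of the rows that fell, 1 passed the filter only through 8C. EXOSC8, an RNA exosome subunit, averaged 275 RPKM in morulae and 28.4 RPKM in 8C embryos (log2 difference 3.16, adjusted p = 1.01e-04), and MRTO4, a large subunit factor, 69.6 RPKM in morulae and 7.43 RPKM in 8C embryos (3.11, adjusted p = 1.07e-04). At MII relative to GV, 1 rose and 12 fell, where 0.342% and 8.97% of all rows did; median-of-ratios scaling gave 1 higher and 6 lower and a pseudocount of 0.1 gave 0 higher and 8 lower. In this comparison 4 were called with 1 of the GV libraries left out, 8 without MII library 2 and 21 without morula library 2. A row named BMS1 by the file alone (IMMRNTR5727) averaged 0.811 RPKM in MII oocytes and 46.7 RPKM in GV oocytes (log2 difference -4.81, adjusted p = 3.26e-05). EXOSC1, another exosome subunit, averaged 23.4 RPKM in MII oocytes and 160.4 RPKM in GV oocytes (log2 difference -2.78, adjusted p = 0.00203). Both calls held without any one library. Of the other comparisons, MII relative to MI had 1 row higher and 8 lower, where 1.49% and 6.99% of all rows were so (with median-of-ratios scaling these were 1 and 4, and 2 rows were called with 1 of the MI libraries left out, 19 without morula library 2). PN relative to MII had 6 higher and 2 lower, where 4.76% and 2.91% of all rows were so (3 or 4 called with 1 of the MII libraries or PN library 1 or 2 left out). Bl relative to Mo had 6 higher and 8 lower, where 12% and 2.12% of all rows were so (3 called without blastocyst library 1, 7 without blastocyst library 2, 0 with only these stages in the fit). Here a pseudocount of 0.1 gave 1 higher and 6 lower and median-of-ratios scaling 5 higher and 22 lower, and 3 of the 6 rows that were higher passed the filter only through Bl. MI relative to GV, 2C relative to PN and 4C relative to 2C had no call in the wider list.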

How the data were processed

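Single oocytes and embryos were lysed whole. Per the labels' protocols, a SMARTer Ultra Low Input kit copied their RNA, and a TruSeq DNA kit made the libraries; the SMARTer method starts from poly(A) tails. The deposited table gives RPKM, computed by the authors, for 35468 rows in the 22 samples, 1 column each. Mmul_8.0.1 is the build in the submitters' processing notes; aligner, counter, annotation release and strand use are not given in the sources used here. Coordinates are printed as deposited. RefSeq gene tables of another assembly put the genes of 6 of the 53 member rows on another chromosome (DDX18, IMP4, NOP10, NOP14 and the second rows of NIP7 and UTP18). Names came from the gene name table or, failing that, the file's first name column.

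A row was tested if 2 or more libraries had 1 RPKM or more, which left 14312 rows. The main test was limma 3.58.1 under R 4.3.3. It was fitted to log2(RPKM + 1) values of the 22 libraries with a mean for each stage, 13 residual degrees of freedom, empirical Bayes moderation with trend and robust settings, and Benjamini-Hochberg adjustment over all tested rows within a comparison. Rows with an adjusted p under 0.05, 2-sided, count as called. The script was tested on simulated data, with log2 changes of 1, 2 or 3 added to 200 rows. For 8C against 4C it called 0%, 44% and 80% of these rows. The shares were 0.5%, 55.5% and 82% for MII against GV, and 27.5%, 84.5% and 98% for late against early embryos. The F test is over the 9 stages. Values of rows spanning under 200 bp gave the depth. For each library the read number was chosen to bring the most low values near whole reads. At the chosen numbers 91.8% of 510 low values lay within 0.05 of whole reads. This share was what the choice maximised, so it is no separate check of the depth. Because RPKM values are not counts, no count model was used. The settings varied were the pseudocount (0.1), the filter (none, or 5 RPKM in 2 libraries), the scaling (median of ratios), the stages in the fit (those compared alone), a block for the replicate number, and each library, left out in turn. Where that left a stage with 1 library, it was assumed to vary like the others.

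The members, the role lists, the wider list and the tests were chosen with earlier results of these data known. Named rows are the called members with the largest changes in each comparison (up to 8 in each direction, or 3 for the smaller steps), the called member with the smallest adjusted p of each role, and a panel of 12 genes, of which NCL was not analysed here; other members are given as levels. Of the 8 member rows below the filter, 2 have ENSMMUG identifiers: NOC4L, at most 2.68 RPKM, and NOL6, at most 1.68 RPKM.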

Additional observations from a re-analysis of the deposited data

How the results depend on the processing

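No member call changed direction under any alternative, and the counts for 8C against 4C, late against early embryos and the F test stayed within 1.5 times under every setting. With a pseudocount of 0.1 the members called were 2 for MII against MI, 4 for MII against GV, 6 for Mo against 8C and 3 for Bl against Mo. Median-of-ratios scaling gave 2 for MII against MI, 2 for MII against GV, 2 for PN against MII and 10 for Bl against Mo. With only the stages compared in the fit there were 2 for MI against GV, 19 for MII against MI, 21 for MII against GV, 10 for PN against MII, 1 for Mo against 8C and 0 for Bl against Mo, and with no filter 1 for MI against GV. The shares of all rows called under these settings, or with a library left out, are not given here. Such counts show how far the calls depend on the setting and are no result about the members. Scaling moved the median log2 difference of all rows from -0.15 to 0.07 for late against early embryos, from -0.19 to -0.04 for MII against GV, from -0.15 to -0.01 for MII against MI, from -0.15 to 0 for 2C against PN, from -0.38 to -0.27 for Mo against 8C and from 0.23 to 0.08 for Bl against Mo.

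Leaving out each library gave 0 to 1 calls for MI against GV, 0 to 12 for MII against MI, 0 to 16 for MII against GV, 1 to 13 for PN against MII, 0 to 0 for 2C against PN, 0 to 1 for 4C against 2C, 17 to 31 for 8C against 4C, 4 to 14 for Mo against 8C, 1 to 8 for Bl against Mo, 37 to 42 for late against early embryos and 41 to 48 for the F test. The number of members with their highest mean at Mo was 17 to 24. Why these counts move was not tested. With 2 or 3 libraries a stage, members that missed the threshold cannot be read as unchanged.

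Replicate numbers did not pair libraries: residuals of same-numbered libraries correlated with a median of 0.00708 over 78 pairs, and those of differently numbered ones with -0.00648 over 136 pairs. With the replicate block, 21 members were called for 8C against 4C, 38 for late against early embryos, 7 for MII against GV, 11 for Mo against 8C and 6 for Bl against Mo, against 24, 38, 9, 10 and 6 without it.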
